A study of Mus musculus with 16 samples.

Results

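The effect of diabetes on the kidney transcriptome in the absence of vitamin B12 was examined by comparing the 4 libraries labelled diabetic and untreated (D_C) with the 4 labelled non-diabetic and untreated (ND_C), which are 8 of the 16 kidney libraries of the study. The libraries were chosen by their labels, and the 25408 of 57186 genes that reached 100 counts in the sum of the 16 libraries were tested. All mice were males aged 16 weeks that were homozygous for Elmo1H, an allele that raises Elmo1 expression, so every comparison was made on that background. ND_C mice were Elmo1H/H Ins2+/+ and D_C mice were Elmo1H/H with 1 Akita copy of Ins2 (Ins2Akita/+), a variant whose misfolded insulin is toxic to the beta cell. The remaining 8 libraries came from mice of both genotypes that drank vitamin B12 (ND_B12 and D_B12). By their labels, all 8 of these mice had the same dose, starting at 8 weeks of age. Kidneys were taken after fasting, between ZT7 and ZT9, and total RNA of the kidney was sequenced.

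The library labelled D_C 1 stood apart from the other D_C libraries and was treated as doubtful throughout. In a fit that did not use it, 1551 genes were called between the other D_C libraries and ND_C. At 1003 of these genes, or 64.7%, D_C 1 lay nearer to the ND_C mean than to the mean of D_C 2 to 4. Genes of 1 library are not independent of one another, so no interval is given for this share. The same share, each over the genes called without that library, was 28.3% of 46 genes for D_C 2, 16.4% of 61 for D_C 3 and 11.8% of 17 for D_C 4. On the first principal component, which held 15.7% of the variance, D_C 1 was at -15.3, D_C 2 to 4 were between 31.0 and 51.4, and ND_C lay between -47.3 and -22.0. Changes in untreated kidneys are therefore given with all libraries and without D_C 1 unless 1 of these is named.

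The labels themselves carry a second doubt. Group means that accompany the article fit other sets of libraries than these labels do. By those sets, D_C 1 and ND_C 3 would join ND_B12 2 and 3 as the non-diabetic treated mice, and ND_B12 1 would join ND_C 1, 2 and 4 as the non-diabetic untreated mice. ND_B12 4 and D_C 2 to 4 would be the diabetic treated mice, and D_B12 1 to 4 the diabetic untreated mice. The labels were kept, so D_C and ND_C mean here the groups as labelled, and the direction of each difference holds for the labelled groups.

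Library totals were 72867148 to 84053153 counts in ND_C and 85751266 to 91771136 in D_C, so every D_C library was deeper than every ND_C library (exact permutation test, two-sided, p = 0.0286, the smallest that 4 against 4 allows). Markers of the nephron were abundant in all 8 libraries, with Lrp2 of the proximal tubule at 296866 to 478938 normalized counts and Umod of the thick ascending limb at 138466 to 208794. The adrenal markers Cyp11b1 and Th were at 0 in 8 of 8 libraries, although Star was at 301 to 544. Mitochondrially encoded RNA made up 10.8 to 11.9% of counts in ND_C and 11.4, 11.8, 8.35 and 11.5% in D_C 1 to 4.

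Transcripts of tissues other than kidney differed between libraries. The summed normalized count of 37 placental (trophoblast) genes, a list chosen after values were seen, was 1496, 1661, 96.3 and 2977 in ND_C 1 to 4, 234, 23.5, 16.0 and 21.5 in D_C 1 to 4 and 4.53 to 118 in the 8 treated libraries. ND_C 1, 2 and 4 were thus the high libraries, and ND_C 3 was below D_C 1. For 16 hepatocyte genes, also listed after values were seen, the sums were 5134, 5418, 5836 and 5632 in ND_C and 4996, 4736, 7899 and 11409 in D_C, with D_C 3 and D_C 4 above all others of the 8. The treated libraries lay between 5329 and 8296, so D_C 3 was within their range and D_C 4 above it. Adipocyte markers summed to 11546, 8732, 35623 and 13904 in ND_C and 28070, 12402, 11946 and 7353 in D_C, highest in ND_C 3 and D_C 1. Immunoglobulin genes summed to 48988, 16978, 15904 and 12015 in ND_C and 9504, 2958, 4124 and 5586 in D_C, and the groups did not overlap.

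**Figure D1:**
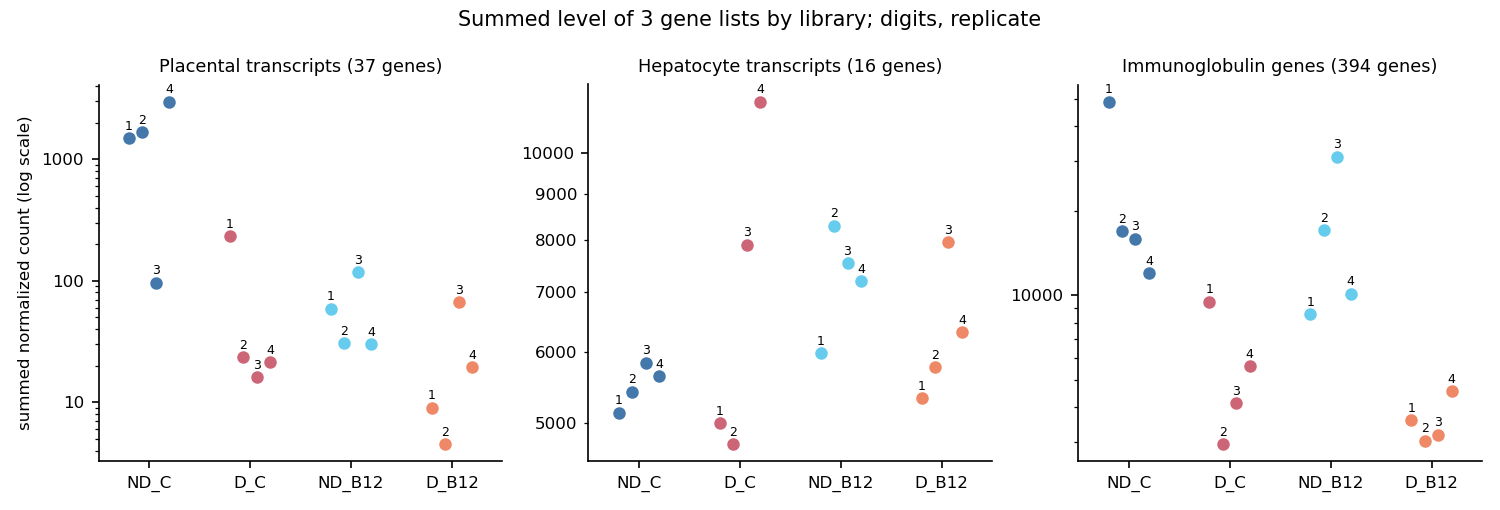
Summed normalized count (log scale) of placental transcripts, hepatocyte transcripts and immunoglobulin genes in each of the 16 libraries, 1 point per library with its replicate number, by labelled group. Placental RNA was high in ND_C 1, 2 and 4 (1496 to 2977), hepatocyte RNA was highest in D_C 4 (11409), and immunoglobulin RNA was higher in every ND_C library (12015 to 48988) than in every D_C library (2958 to 9504).

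The kidney filters glucose and reclaims it in the proximal tubule, so hyperglycemia raises the load on the sodium-coupled glucose carriers, and glucose that escapes draws water into the urine. The tubule also makes glucose itself, excretes ammonia, conjugates foreign compounds, and in its deeper segments concentrates the urine under the control of vasopressin. Diabetic injury of the kidney is known for thickening of the basement membrane, changes of the endothelium and podocytes, oxidative stress and inflammation.

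Promoters of 2 genes are shown because Slc6a12, the betaine and GABA carrier that loads cells with osmolyte, and Aqp2, the vasopressin-regulated water channel of the collecting duct, were among the largest increases and have well-known upstream factors. Each window is the 250 bases before a RefSeq start site in GRCm38.p6, read 5′ to 3′ on the plus strand, at chr6:121342324-121342573 for Slc6a12 and chr15:99578806-99579055 for Aqp2. Capitals mark TGGAAA, the core bound by the tonicity factor Nfat5, in Slc6a12 and ACGTCA, the cyclic AMP response half-site TGACGT on the other strand, in Aqp2.
Slc6a12: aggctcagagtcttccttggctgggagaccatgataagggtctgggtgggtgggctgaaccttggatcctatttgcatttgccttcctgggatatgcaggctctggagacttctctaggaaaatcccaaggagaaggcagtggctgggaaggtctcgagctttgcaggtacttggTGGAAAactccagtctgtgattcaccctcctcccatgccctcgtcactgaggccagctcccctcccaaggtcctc
Aqp2: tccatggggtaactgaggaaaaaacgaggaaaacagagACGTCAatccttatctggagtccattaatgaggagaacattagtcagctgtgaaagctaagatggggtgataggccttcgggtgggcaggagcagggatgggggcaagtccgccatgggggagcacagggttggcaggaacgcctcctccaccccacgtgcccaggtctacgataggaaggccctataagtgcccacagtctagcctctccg
The Slc6a12 match began 75 bases before the start in 1 of the 5 windows of the gene, and TGGAAA on either strand was in 18.6% of all 32851 windows of this length. The Aqp2 match began 212 bases before the start in its 1 window, and TGACGT on either strand was in 6.47% of all windows. These matches describe the letters of the windows and not binding, which was not measured.

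Genes whose edgeR quasi-likelihood test gave a Benjamini-Hochberg adjusted p below 0.05 over all 25408 genes are called here. With all libraries 423 genes were called, 238 higher (0.937% of genes tested) and 185 lower (0.728%) in D_C, or 1.66% together. Without D_C 1 there were 1551, 807 higher (3.18%) and 744 lower (2.93%), or 6.1%. Of the 423 genes, 418 (98.8%) were also called in the same direction without D_C 1, and these were 27.0% of the 1551. Of the called genes, 41 higher and 43 lower had a fold of 1 or more on the log2 scale with all libraries, and 130 and 220 did without D_C 1. By the looser rule of an unadjusted p below 0.05 with a log2 fold change of 0.5 or more in size, 1941 genes (7.64%) passed with all libraries, 949 higher (3.74%) and 992 lower (3.9%), and 2675 (10.5%) without D_C 1, 1029 higher (4.05%) and 1646 lower (6.48%). Predicted and Rik loci were 33.9% of genes tested, and they gave 15 of the higher and 41 of the lower calls with all libraries and 40 and 192 without D_C 1. The median log2 fold change over all genes was -0.0034 with all libraries and -0.018 without D_C 1.

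The calls rested on few libraries. Leaving out ND_C 1, 2, 3 or 4 gave 71, 0, 2 or 357 calls, and leaving out D_C 1, 2, 3 or 4 gave 1551, 46, 61 or 17, so every call made with all libraries was lost without ND_C 2, where 3693 genes still had an unadjusted p below 0.05. With D_C 1 already left out, leaving out ND_C 1, 2, 3 or 4 gave 652, 449, 661 or 1495 calls, and leaving out D_C 2, 3 or 4 gave 914, 619 or 764. The date that opens each library name did not repeat between ND_C and D_C, so no comparison within a date was possible. All ND_C libraries and D_C 1 bear dates in August, and D_C 2 to 4 bear dates in September and October. Every ND_C date comes before every D_C date, and D_C 1 is the D_C library nearest to ND_C in date. Genotype and date therefore cannot be told apart in these libraries, with or without D_C 1. With the date as a factor, a fit of 4 residual degrees of freedom, edgeR called 0 genes with all libraries (1645 at an unadjusted p below 0.05). That fit links D_C to ND_C through D_C 1, ND_C 4 and the ND_B12 libraries that share their dates, and D_C 2 to 4 do not enter its contrast, so its count says nothing of their calls. With the date as a linear term 2 genes were called, or 281 without D_C 1.

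**Figure D2:**
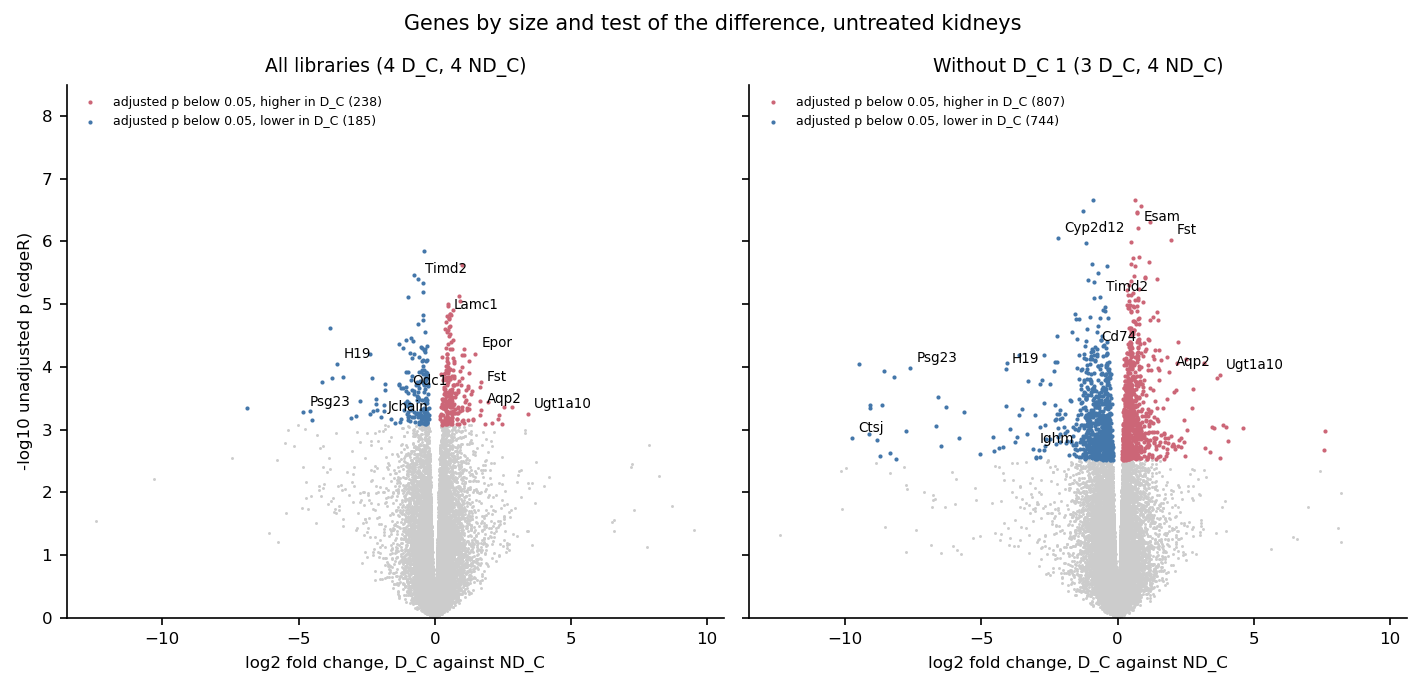
Log2 fold change of D_C against ND_C (x axis) and −log10 of the unadjusted edgeR p (y axis) for each of 25408 genes, with all libraries (left) and without D_C 1 (right); red and blue points are genes called higher and lower. Called genes rose from 238 higher and 185 lower on the left to 807 and 744 on the right.

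In what follows, values per library are normalized counts listed from replicate 1 to 4. Changes are log2 fold changes of D_C against ND_C with the standard error after ±, first without D_C 1 (n = 3 against 4) and then with it (n = 4 against 4), each with its p from edgeR adjusted over all genes. A gene that rose, fell or changed passed the test without D_C 1. D_C 1 was left out because its own values lay toward ND_C, which by itself narrows the spread of D_C and favours calls. Adjusted p-values without D_C 1 can therefore be too small, and are to be read with those of all libraries beside them. Counts of list members can be read against the backgrounds of 3.18% higher and 2.93% lower without D_C 1. Some genes belong to more than 1 list, among them Slc2a1, Slc38a3, Abcc2 and Aqp6, so the counts of different lists are not all separate. Groups described as not overlapping can be read against 9.44% of all genes at which normalized counts did not overlap with all libraries (4.86% with D_C higher and 4.58% lower) and 19.8% without D_C 1 (10.5% and 9.36%). In these bulk samples, a difference in the number of cells of a type and one in RNA per cell cannot be told apart.

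The leading increase with all libraries was in the Ugt1a cluster, whose enzymes attach glucuronic acid to bilirubin, steroids and drugs. Ugt1a10 (chr1:87983110-88146726 (+), GRCm39) was at 279.5, 233, 459 and 594 in ND_C and 726, 10954, 2515 and 2568 in D_C. D_C 2 was far above the rest, D_C 1 just above the highest ND_C library, and the groups did not overlap, for a log2 fold change of 3.76 ± 0.74 (adjusted p = 0.0137), or 3.42 ± 0.80 (0.0453) with D_C 1. Ugt1a2, whose exons after the first are shared with its neighbours, was at 124, 131, 137 and 129 in ND_C and 231, 1675, 1022 and 819 in D_C. Its log2 fold change was 3.16 ± 0.59 (adjusted p = 0.0118), or 2.85 ± 0.65 (0.0429) with D_C 1, and again D_C 1 was the lowest D_C library. Because genes of the cluster share exons, the counts of its single members are uncertain.

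Slc6a12 (chr6:121320035-121342734, GRCm39), whose promoter window is printed above, was at 61.9, 67.6, 46.4 and 72.0 in ND_C and 113, 579.8, 261 and 442 in D_C. The groups did not overlap, and Slc6a12 rose by 2.77 ± 0.57 (adjusted p = 0.0167), or 2.49 ± 0.61 (0.0498) with D_C 1. Aqp2 (chr15:99476936-99485016, GRCm39) was at 7904, 5335, 4197 and 6249 in ND_C and 9356, 27158, 16916 and 23006 in D_C. All D_C libraries were above all ND_C libraries, with D_C 1 closest to them, and Aqp2 rose by 1.91 ± 0.37 (adjusted p = 0.0132), or 1.69 ± 0.39 (0.0436) with D_C 1. Markers of collecting duct principal cells, 8 genes that include Aqp2, summed to 27211, 24014, 23744 and 28995 in ND_C and 31655, 51574, 44592 and 48332 in D_C, and their part in this increase was not tested.

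Receptors and secreted proteins were also among the leading increases. Fst, the activin-binding protein follistatin (chr13:114588731-114595521 (-), GRCm39), was at 201, 266, 198 and 215 in ND_C and 230.4, 895, 726 and 960.4 in D_C. D_C 1 lay within the ND_C range and D_C 2 to 4 were all above it, with a log2 fold change of 1.95 ± 0.25 (adjusted p = 0.00223), or 1.67 ± 0.35 (0.0356) with D_C 1. Epor, the erythropoietin receptor, was at 160.0, 100.4, 102 and 78.7 in ND_C and 267, 364, 285 and 314 in D_C, without overlap. Its log2 fold change was 1.53 ± 0.29 (adjusted p = 0.0125), or 1.48 ± 0.27 (0.0293) with D_C 1. Adora1, the adenosine receptor of tubuloglomerular feedback, was at 395, 253, 318 and 261 in ND_C and 626, 1158, 552 and 903 in D_C, also without overlap, and changed by 1.49 ± 0.35 (adjusted p = 0.0272), or 1.40 ± 0.33 (0.0471) with D_C 1. Slco4a1, an organic anion carrier, was at 468, 399.6, 323 and 791 in ND_C and 1593, 2162, 1042 and 1627 in D_C, and here D_C 1 was as high as the other D_C libraries. It rose by 1.69 ± 0.38 (adjusted p = 0.0220), or 1.69 ± 0.35 (0.0348) with D_C 1.

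Actn3, an actinin known from fast muscle fibres, was at 27.7, 23.9, 29.4 and 25.0 in ND_C and 39.8, 180.4, 88.0 and 107 in D_C and rose by 2.22 ± 0.39 (adjusted p = 0.0101), or 1.96 ± 0.44 (0.0408) with D_C 1. The muscle markers Acta1 and Ckm were at 0 in 5 and 7 of the 8 libraries. Cfap52, a protein of motile cilia, was at 43.7, 37.8, 26.1 and 40.3 in ND_C and 139, 109.9, 92.4 and 134 in D_C, a group difference in which D_C 1 took part, with 1.58 ± 0.40 (adjusted p = 0.0337), or 1.68 ± 0.37 (0.0408) with D_C 1. Fgf12, an intracellular member of the fibroblast growth factor family, was at 83.2, 65.6, 71.4 and 58.5 in ND_C and 119, 231, 169 and 194 in D_C and rose by 1.496 ± 0.29 (adjusted p = 0.0124), or 1.35 ± 0.29 (0.0374) with D_C 1. Aldoc, an aldolase of glycolysis, was at 706, 563, 488 and 612 in ND_C and 685, 2084, 1145 and 1765 in D_C, where D_C 1 lay within ND_C. Its log2 fold change was 1.48 ± 0.24 (adjusted p = 0.00704), or 1.26 ± 0.29 (0.0436) with D_C 1.

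Without D_C 1 the leading increases included genes of other tissues and a BMP antagonist. Mat1a, the hepatic enzyme that makes S-adenosylmethionine, was at 7.47, 0, 28.3 and 8.64 in ND_C and 0, 47.9, 100.4 and 329.9 in D_C, and Cps1, the entry enzyme of the hepatic urea cycle, at 0, 33.8, 49.8 and 19.2 in ND_C and 0, 49.8, 156 and 502 in D_C. D_C 4 and D_C 3, which had the most hepatocyte RNA of the 8 untreated libraries, were highest for both, and D_C 1 was at 0 for both. The log2 fold changes were 3.86 ± 0.93 (adjusted p = 0.0289), or 3.45 ± 1.15 (0.119) with D_C 1 for Mat1a and 3.19 ± 0.85 (adjusted p = 0.0406), or 2.78 ± 1.07 (0.174) with D_C 1 for Cps1. Cps1 overlapped between the groups, and the part of hepatocyte RNA in these values was not tested.

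Grem1, a BMP antagonist known from the diabetic kidney, was at 20.3, 9.94, 10.2 and 38.4 in ND_C and 26.3, 307, 217 and 246 in D_C. D_C 2 to 4 were far above ND_C and D_C 1 within it, for a log2 fold change of 3.67 ± 0.73 (adjusted p = 0.0146), or 3.31 ± 0.83 (0.0528) with D_C 1. Ugt1a5 changed by 2.51 ± 0.46 (adjusted p = 0.0114), or 2.19 ± 0.55 (0.0538) with D_C 1 and Ugt1a1, the bilirubin-conjugating enzyme, by 2.43 ± 0.63 (adjusted p = 0.0373), or 2.17 ± 0.63 (0.0841) with D_C 1. Dscaml1, a cell adhesion molecule, was at 55.5, 120.3, 32.8 and 84.5 in ND_C and 41.5, 530.0, 339 and 328 in D_C and changed by 2.42 ± 0.57 (adjusted p = 0.0265), or 2.07 ± 0.67 (0.114) with D_C 1. Rph3a, rabphilin of vesicle release, was at 24.5, 37.8, 34.0 and 12.5 in ND_C and 27.95, 94.0, 124 and 154 in D_C, with changes of 2.18 ± 0.41 (adjusted p = 0.0118), or 1.88 ± 0.49 (0.0591) with D_C 1.

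Placental transcripts led the decreases. Psg23 (chr7:18340268-18350426 (-), GRCm39), a pregnancy-specific glycoprotein, was at 129, 140.2, 10.2 and 275 in ND_C and 16.9, 0, 0.889 and 0.859 in D_C. ND_C 3 was below D_C 1 and D_C 2 to 4 were at or near 0, so the fold is given with D_C 1 alone, at -4.83 ± 1.12 (adjusted p = 0.0443, or 0.0125 without D_C 1). Psg16 was at 134, 198, 18.1 and 319 in ND_C and 20.3, 16.9, 12.4 and 14.6 in D_C and changed by -3.52 ± 0.79 (adjusted p = 0.0226), or -3.37 ± 0.68 (0.0340) with D_C 1. H19, an imprinted fetal and placental RNA, was at 164, 133, 11.3 and 327 in ND_C and 25.4, 8.46, 6.22 and 12.9 in D_C. ND_C 3 lay among the D_C values also here, and H19 changed by -4.11 ± 0.79 (adjusted p = 0.0125), or -3.57 ± 0.69 (0.0316) with D_C 1. Psg21 (160.0, 182, 7.93 and 330.1 in ND_C and 29.6, 1.88, 0 and 4.30 in D_C) and Tpbpa, trophoblast-specific protein alpha (91.8, 95.4, 18.1 and 185 and 32.2, 0, 2.67 and 0), were called without D_C 1 (adjusted p = 0.0217 and 0.0189) and not with it (0.0682 and 0.116). Ctsj, a placental cathepsin, was at 102, 152, 0 and 169.9 in ND_C and 11.0, 0, 0 and 0 in D_C, and as D_C 2 to 4 were all at 0 no fold is given (adjusted p = 0.0354 without D_C 1 and 0.0658 with it). Pappa2, a protease of IGF-binding proteins that placenta and kidney both make, was at 172, 145, 97.4 and 211 in ND_C and 102, 5.64, 11.6 and 20.6 in D_C, with changes of -3.62 ± 0.66 (adjusted p = 0.0110), or -2.15 ± 0.71 (0.117) with D_C 1. Of 17 placental transcripts tested, 4 fell with all libraries and 14 without D_C 1. These numbers are no separate result, since the list was chosen after values were seen. Most of its counts, which also decide what is tested, came from ND_C 1, 2 and 4. Its members followed the summed placental RNA of the libraries, whose part was not tested. The Psg genes and placental cathepsins are near-identical families, so their single counts are uncertain.

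Popdc3, a cyclic AMP-binding membrane protein, was at 241, 258, 368 and 45.1 in ND_C and 6.78, 26.3, 12.4 and 6.01 in D_C. Its groups did not overlap, D_C 1 was among the lowest, and it fell with a log2 fold change of -3.95 ± 0.97 (adjusted p = 0.0307), or -4.15 ± 0.85 (0.0348) with D_C 1. Ffar3, a receptor for short-chain fatty acids, was at 90.7, 132, 46.4 and 70.1 in ND_C and 28.8, 9.40, 32.0 and 25.8 in D_C and changed by -1.92 ± 0.44 (adjusted p = 0.0244), or -1.81 ± 0.38 (0.0373) with D_C 1. Cldn18, a tight junction protein, was at 132, 138, 116 and 122 in ND_C and 44.9, 55.4, 59.5 and 47.2 in D_C, and all D_C libraries were below all ND_C libraries. Its log2 fold change was -1.24 ± 0.30 (adjusted p = 0.0302), or -1.29 ± 0.27 (0.0349) with D_C 1. B4galt5, which starts glycosphingolipid synthesis from glucosylceramide, was at 14445, 17756, 16039 and 11070 in ND_C and 7480, 7202, 7283 and 6624 in D_C, with -1.09 ± 0.21 (adjusted p = 0.0132), or -1.05 ± 0.19 (0.0279) with D_C 1. Camk2a, a calcium and calmodulin kinase, was at 62.9, 54.7, 80.4 and 71.0 in ND_C and 32.2, 44.2, 34.7 and 21.5 in D_C and fell, with -1.02 ± 0.26 (adjusted p = 0.0377), or -1.02 ± 0.24 (0.0453) with D_C 1. Neurog2, a transcription factor of neuronal fate, was at 191, 379.7, 313 and 133 in ND_C and 174, 16.0, 48.9 and 56.7 in D_C. D_C 1 lay within ND_C, and the changes were -2.65 ± 0.64 (adjusted p = 0.0289), or -1.77 ± 0.63 (0.142) with D_C 1.

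**Figure D3:**
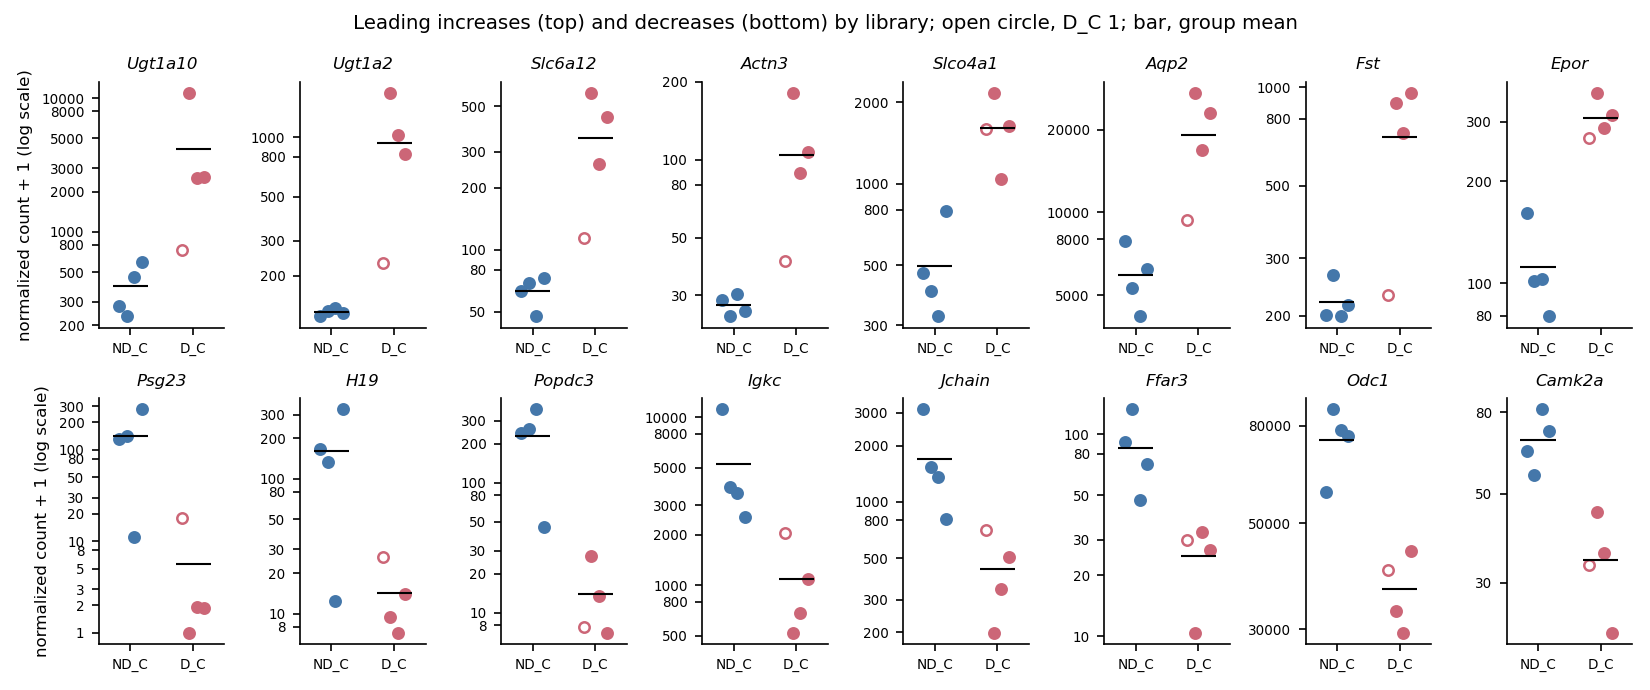
Normalized count plus 1 (log scale) of 8 leading increases (top) and 8 leading decreases (bottom) in the 4 ND_C and 4 D_C libraries; open circles are D_C 1 and bars are group means. D_C 1 lies between the other D_C libraries and ND_C for Ugt1a10, Slc6a12 and Aqp2, and with the other D_C libraries for Slco4a1, Popdc3 and Odc1.

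Several genes of glucose handling rose. Among glucose and hexose transporters, 4 of 15 rose and 0 fell (0 and 0 with D_C 1), and the median log2 fold change was 0.24 (0.19 with D_C 1). Slc5a10, a mannose and fructose carrier of the brush border, was at 14032, 11606, 12943 and 13773 in ND_C and 9256, 40995, 27221 and 22454 in D_C. D_C 1 was the lowest of the 8 libraries and D_C 2 to 4 the highest, for 1.196 ± 0.27 (adjusted p = 0.0242), or 0.93 ± 0.34 (0.158) with D_C 1. Slc2a5, the fructose transporter, changed by 0.91 ± 0.21 (adjusted p = 0.0252), or 0.72 ± 0.25 (0.128) with D_C 1, and Slc5a1, the low-capacity sodium-glucose carrier, by 0.63 ± 0.16 (adjusted p = 0.0371), or 0.50 ± 0.18 (0.155) with D_C 1. Slc2a1, the basal glucose transporter, was at 2507, 2411, 2374 and 2775 in ND_C and 2913, 3137, 3442 and 3916 in D_C, without overlap, and changed by 0.46 ± 0.10 (adjusted p = 0.0218), or 0.41 ± 0.10 (0.0526) with D_C 1. Slc5a2, the main sodium-glucose carrier of the early proximal tubule and the target of gliflozin drugs, was at 23426, 25346, 26726 and 26071 in ND_C and 20321, 18327, 26682 and 24752 in D_C. The groups overlapped, and its log2 fold change of -0.14 ± 0.11 (adjusted p = 0.490), or -0.17 ± 0.10 (0.396) with D_C 1 did not pass the test.

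Of fructose, polyol and glycolysis enzymes, 10 of 30 rose and 1 fell (4 and 0 with D_C 1), and the median log2 fold change was 0.17 (0.091 with D_C 1). Hk1, a hexokinase, was at 6903, 6454, 6096 and 7679 in ND_C and 8032, 9888, 9465 and 11012 in D_C and rose by 0.57 ± 0.075 (adjusted p = 0.00331), or 0.50 ± 0.086 (0.0246) with D_C 1. Pfkl, a phosphofructokinase, was at 3428, 3270, 3673 and 3857 in ND_C and 3875, 5686, 4972 and 5712 in D_C, again without overlap, and rose by 0.61 ± 0.085 (adjusted p = 0.00415), or 0.51 ± 0.11 (0.0380) with D_C 1. Pkm, a pyruvate kinase, was at 12218, 10432, 12117 and 13099 in ND_C and 12115, 20770, 18075 and 20251 in D_C, with D_C 1 inside the ND_C range and 0.71 ± 0.082 (adjusted p = 0.00147), or 0.57 ± 0.13 (0.0429) with D_C 1. Khk, ketohexokinase, the first step of fructose use, was at 28814, 29730, 29950 and 28113 in ND_C and 24212, 33730, 32699 and 32944 in D_C, and D_C 1 was the lowest library. Its change was 0.17 ± 0.049 (adjusted p = 0.0493), or 0.084 ± 0.083 (0.655) with D_C 1, and the sign turned with all libraries and the date as a linear term (log2 fold change -0.034). Tkfc, triokinase, the next step of fructose use, changed by 0.50 ± 0.084 (adjusted p = 0.00905), or 0.33 ± 0.16 (0.278) with D_C 1.

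Of the carbohydrate response genes, 4 of 11 rose and 0 fell (0 and 0 with D_C 1), and the median log2 fold change was 0.17 (0.14 with D_C 1). Of these 4, Pklr, Tkfc and Khk are also counted among the fructose, polyol and glycolysis enzymes above, so Txnip alone is added here. Txnip, a glucose-induced inhibitor of thioredoxin and of glucose uptake (chr3:96465267-96469201 (+), GRCm39), was at 32879, 24553, 27011 and 32271 in ND_C and 33981, 43039, 51674 and 51345 in D_C. All D_C libraries were above all ND_C libraries, though D_C 1 by little, and it changed by 0.73 ± 0.20 (adjusted p = 0.0445), or 0.63 ± 0.20 (0.104) with D_C 1. Its relative Arrdc4 had 0.37 ± 0.10 (adjusted p = 0.0513), or 0.35 ± 0.098 (0.0747) with D_C 1 and did not pass. Pklr, the liver and kidney pyruvate kinase, changed by 0.77 ± 0.20 (adjusted p = 0.0350), or 0.58 ± 0.24 (0.211) with D_C 1. For insulin and IGF signaling, 3 of 26 rose and 0 fell (0 and 0 with D_C 1), and the median log2 fold change was 0.089 (0.091 with D_C 1).

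For renal gluconeogenesis and ammoniagenesis, 5 of 16 rose and 0 fell (1 and 0 with D_C 1), and the median log2 fold change was 0.24 (0.14 with D_C 1). Pck2, mitochondrial phosphoenolpyruvate carboxykinase, was at 799, 779, 863 and 852 in ND_C and 1026, 1011, 1190 and 1006 in D_C. The groups did not overlap, and Pck2 rose by 0.37 ± 0.093 (adjusted p = 0.0353), or 0.36 ± 0.087 (0.0474) with D_C 1. Pck1, the cytosolic form and a rate-limiting enzyme of gluconeogenesis, was at 235049, 225322, 252335 and 320062 in ND_C and 259374, 598731, 316038 and 274216 in D_C, high in D_C 2 alone, and its 0.61 ± 0.24 (adjusted p = 0.147), or 0.49 ± 0.24 (0.296) with D_C 1 did not pass. G6pc1, which releases free glucose, had -0.21 ± 0.15 (adjusted p = 0.422), or -0.26 ± 0.14 (0.330) with D_C 1 and did not pass either. Slc38a3, the glutamine carrier that feeds ammonia production, changed by 1.24 ± 0.29 (adjusted p = 0.0274), or 0.96 ± 0.38 (0.181) with D_C 1.

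Lipid and mitochondrial lists showed few calls. Of PPARalpha, fatty acid oxidation and ketogenesis genes, 1 of 45 rose and 0 fell (1 and 0 with D_C 1), and the median log2 fold change was 0.24 (0.19 with D_C 1). The gene called was Cpt1b, a carnitine palmitoyltransferase of the mitochondrial entry step, at 2089, 1748, 2120 and 1953 in ND_C and 2729, 2614, 2573 and 3082 in D_C, without overlap, which rose by 0.47 ± 0.10 (adjusted p = 0.0205), or 0.48 ± 0.095 (0.0340) with D_C 1. In fatty acid synthesis and lipid storage, 1 of 22 rose and 2 fell (0 and 0 with D_C 1), and the median log2 fold change was -0.090 (-0.015 with D_C 1). The desaturases Fads1 and Fads2, which make polyunsaturated fatty acids, fell, with -0.49 ± 0.13 (adjusted p = 0.0373), or -0.39 ± 0.12 (0.103) with D_C 1 and -0.49 ± 0.13 (adjusted p = 0.0438), or -0.40 ± 0.13 (0.110) with D_C 1, and Gpam, the first acyltransferase of triglyceride synthesis, changed by 0.38 ± 0.10 (adjusted p = 0.0382), or 0.26 ± 0.13 (0.301) with D_C 1. For cholesterol synthesis and uptake, 1 of 28 rose and 1 fell (0 and 1 with D_C 1), and the median log2 fold change was 0.0060 (-0.052 with D_C 1). Of 89 nuclear-encoded subunits of oxidative phosphorylation and 13 mitochondrially encoded proteins none was called in either fit, with medians of 0.023 and -0.15 without D_C 1. Of 82 cytosolic ribosomal proteins, 1 fell and 0 rose without D_C 1 and none was called with it, with medians of -0.056 and -0.050.

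Among conjugating enzymes, those of UDP-glucuronosyl transfer include the Ugt1a genes. Of UDP-glucuronosyltransferases, 8 of 19 rose and 1 fell (2 and 0 with D_C 1), and the median log2 fold change was 0.67 (0.49 with D_C 1). Most of those that rose are in the Ugt1a cluster, whose genes share exons, so they cannot be counted as separate rises. Of glutathione transferases, 6 of 27 rose and 0 fell (1 and 0 with D_C 1), and the median log2 fold change was 0.30 (0.27 with D_C 1). Gstt3 was at 3017, 2903, 3033 and 3285 in ND_C and 3247, 4249, 4318 and 3984 in D_C and changed by 0.44 ± 0.073 (adjusted p = 0.00839), or 0.37 ± 0.089 (0.0496) with D_C 1. Gstm1 was at 30140, 31048, 29439 and 30815 in ND_C and 24970, 38227, 36426 and 37054 in D_C, and D_C 1 was below ND_C where D_C 2 to 4 were above it, with 0.28 ± 0.058 (adjusted p = 0.0159), or 0.17 ± 0.10 (0.394) with D_C 1. Gstm3 and Gstp2 changed by 0.41 ± 0.092 (adjusted p = 0.0233), or 0.27 ± 0.13 (0.291) with D_C 1 and 0.64 ± 0.16 (adjusted p = 0.0307), or 0.48 ± 0.19 (0.179) with D_C 1. Members of the Gstm and Gstp families are near-identical, so how their reads were divided is uncertain.

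Of genes of the Nrf2 pathway, the main sensor of oxidants and electrophiles, 11 of 37 rose and 1 fell (2 and 1 with D_C 1), and the median log2 fold change was 0.28 (0.21 with D_C 1). Ephx1, microsomal epoxide hydrolase, was at 2370, 1725, 1972 and 2617 in ND_C and 3286, 6783, 5027 and 5128 in D_C, without overlap, and rose by 1.37 ± 0.24 (adjusted p = 0.0110), or 1.22 ± 0.25 (0.0349) with D_C 1. Nqo1, a quinone reductase and a defining target, was at 3636, 2912, 2954 and 3467 in ND_C and 3215, 5208, 5173 and 5508 in D_C. D_C 1 lay inside ND_C and D_C 2 to 4 were together above it, for 0.70 ± 0.11 (adjusted p = 0.00631), or 0.56 ± 0.15 (0.0616) with D_C 1. Abcc2, a conjugate export pump of the brush border, changed by 0.53 ± 0.10 (adjusted p = 0.0125), or 0.39 ± 0.14 (0.138) with D_C 1, and Abcc1, a pump of the basolateral side, by 0.47 ± 0.089 (adjusted p = 0.0122), or 0.40 ± 0.097 (0.0492) with D_C 1. Of superoxide and peroxide scavenging enzymes, 2 of 25 rose and 1 fell (0 and 0 with D_C 1), and the median log2 fold change was 0.037 (-0.024 with D_C 1). Sod1, cytosolic superoxide dismutase, was at 30895, 32538, 33112 and 31790 in ND_C and 27875, 28757, 27992 and 24824 in D_C, lower in every D_C library, and changed by -0.25 ± 0.063 (adjusted p = 0.0349), or -0.23 ± 0.061 (0.0625) with D_C 1. Among Elmo1, Dock, Rac and NADPH oxidase genes, 0 of 20 rose and 1 fell (0 and 0 with D_C 1), and the median log2 fold change was -0.16 (-0.14 with D_C 1). Elmo1, the engulfment and motility gene raised in all of these mice, was at 497, 347, 331 and 376 in ND_C and 417, 336, 319 and 357 in D_C, with overlap and -0.21 ± 0.15 (adjusted p = 0.415), or -0.12 ± 0.14 (0.720) with D_C 1.

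Cytochromes P450 and drug transporters moved both ways. Of cytochromes P450 of families 1 to 4, 4 of 57 rose and 2 fell (1 and 0 with D_C 1), and the median log2 fold change was 0.14 (0.17 with D_C 1). The part of hepatocyte RNA in those that rose was not tested. Cyp2d12 was at 10474, 5958, 6651 and 7598 in ND_C and 8323, 1313, 1918 and 1899 in D_C. D_C 1 was as high as ND_C and D_C 2 to 4 were far below, for -2.18 ± 0.27 (adjusted p = 0.00223), or -1.19 ± 0.45 (0.166) with D_C 1. Of organic ion and drug transporters, 3 of 35 rose and 5 fell (1 and 4 with D_C 1), and the median log2 fold change was -0.091 (-0.11 with D_C 1). Slc22a28 and Slc22a29, mouse organic anion transporters in a cluster of near-identical genes, were at 14508, 18075, 17280 and 15782 in ND_C and 12496, 9007, 9329 and 10721 in D_C, and at 865, 961, 911 and 879 in ND_C and 678, 579, 519.9 and 637 in D_C. Both were lower in all D_C libraries, and fell, with -0.77 ± 0.14 (adjusted p = 0.0110), or -0.66 ± 0.14 (0.0348) with D_C 1 for Slc22a28 and -0.65 ± 0.13 (adjusted p = 0.0125), or -0.58 ± 0.12 (0.0340) with D_C 1 for Slc22a29. Of sulfotransferases, 1 of 8 rose and 0 fell (0 and 0 with D_C 1), and the median log2 fold change was 0.24 (0.18 with D_C 1).

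Of nephron sodium and potassium transport genes and their kinases, 6 of 29 rose and 1 fell (1 and 0 with D_C 1), and the median log2 fold change was 0.091 (0.070 with D_C 1). Stk39, the kinase SPAK that activates salt carriers, changed by 0.48 ± 0.076 (adjusted p = 0.00631), or 0.38 ± 0.11 (0.0739) with D_C 1, and Atp1b1, the beta subunit of the sodium pump, by 0.42 ± 0.077 (adjusted p = 0.0110), or 0.32 ± 0.11 (0.127) with D_C 1. Slc12a1, the loop diuretic-sensitive carrier, was at 68043, 73483, 62919 and 71893 in ND_C and 68089, 85284, 86150 and 127238 in D_C, highest in D_C 4, with 0.52 ± 0.14 (adjusted p = 0.0422), or 0.41 ± 0.15 (0.158) with D_C 1. Slc12a3, the thiazide-sensitive carrier of the distal convoluted tubule, was at 80356, 77213, 72455 and 73111 in ND_C and 69592, 59766, 57605 and 53766 in D_C, lower in all D_C libraries, and changed by -0.42 ± 0.091 (adjusted p = 0.0199), or -0.33 ± 0.093 (0.0747) with D_C 1. Of thin limb markers, 4 of 8 rose and 0 fell (2 and 0 with D_C 1), and the median log2 fold change was 0.92 (0.87 with D_C 1), and their sum was 70368, 65707, 61325 and 66217 in ND_C and 72571, 80452, 87687 and 93869 in D_C.

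Of water and urea handling genes, 4 of 16 rose and 0 fell (3 and 0 with D_C 1), and the median log2 fold change was 0.23 (0.20 with D_C 1). Aqp3, the basolateral water channel of the collecting duct, was at 5854, 5550, 5343 and 5980 in ND_C and 6391, 9212, 9211 and 9594 in D_C. D_C 1 was the lowest D_C library and still above ND_C, and Aqp3 rose by 0.71 ± 0.11 (adjusted p = 0.00618), or 0.60 ± 0.13 (0.0397) with D_C 1. Aqp6, a channel of intercalated cell vesicles, was at 3283, 3294, 3016 and 3705 in ND_C and 4062, 9225, 6379 and 6967 in D_C and rose by 1.17 ± 0.16 (adjusted p = 0.00331), or 1.00 ± 0.20 (0.0335) with D_C 1. Slc14a1, a urea transporter, was at 206, 179, 102 and 254 in ND_C and 518, 595, 582 and 753 in D_C, without overlap, and changed by 1.78 ± 0.50 (adjusted p = 0.0471), or 1.72 ± 0.46 (0.0651) with D_C 1. Slc14a2, the vasopressin-regulated urea transporter, was at 2578, 1662, 1397 and 1685 in ND_C and 2574, 6904, 2599 and 6445 in D_C, low in D_C 1 and D_C 3 against D_C 2 and D_C 4, and its 1.53 ± 0.62 (adjusted p = 0.151), or 1.34 ± 0.59 (0.232) with D_C 1 did not pass. Of organic osmolyte genes and Nfat5, 1 of 11 rose and 0 fell (1 and 0 with D_C 1), and the median log2 fold change was 0.27 (0.26 with D_C 1), and the member called in both fits was Slc6a12.

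Of intercalated cell and acid-base genes, 4 of 22 rose and 0 fell (1 and 0 with D_C 1), and the median log2 fold change was 0.17 (0.12 with D_C 1). Slc26a7, an anion exchanger, was at 131, 202, 215 and 278 in ND_C and 257, 706, 369 and 735 in D_C and changed by 1.53 ± 0.31 (adjusted p = 0.0147), or 1.32 ± 0.33 (0.0550) with D_C 1. Slc4a1, the basolateral bicarbonate exchanger of acid-secreting cells, was at 3345, 3200, 3082 and 3566 in ND_C and 3586, 6158, 5661 and 5660 in D_C, without overlap, with 0.81 ± 0.14 (adjusted p = 0.0104), or 0.67 ± 0.17 (0.0526) with D_C 1. Car15, a membrane carbonic anhydrase, was at 2972, 2445, 2841 and 3078 in ND_C and 2236, 4567, 4805 and 4873 in D_C, lowest in D_C 1, with 0.73 ± 0.11 (adjusted p = 0.00570), or 0.54 ± 0.19 (0.134) with D_C 1. Of calcium, phosphate, magnesium and vitamin D genes, 2 of 26 rose and 2 fell (1 and 1 with D_C 1), and the median log2 fold change was 0.071 (0.048 with D_C 1). Trpv6, an apical calcium channel, was at 72.6, 53.7, 51.0 and 77.7 in ND_C and 82.2, 226, 158 and 141 in D_C and rose by 1.44 ± 0.20 (adjusted p = 0.00415), or 1.25 ± 0.25 (0.0340) with D_C 1. Stc1, stanniocalcin, a hormone of calcium and phosphate balance, changed by 1.23 ± 0.24 (adjusted p = 0.0126), or 1.04 ± 0.27 (0.0575) with D_C 1. Slc34a1, the main phosphate carrier of the proximal tubule, was at 398950, 440677, 456163 and 402323 in ND_C and 361910, 352718, 350123 and 336801 in D_C, lower in all D_C libraries, and changed by -0.30 ± 0.066 (adjusted p = 0.0203), or -0.28 ± 0.068 (0.0504) with D_C 1. Pth1r, the parathyroid hormone receptor, was at 34294, 37410, 39272 and 40279 in ND_C and 30715, 35103, 28405 and 29051 in D_C, and 1 D_C library lay inside ND_C. Its log2 fold change was -0.30 ± 0.076 (adjusted p = 0.0325), or -0.30 ± 0.071 (0.0485) with D_C 1.

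Of renin-angiotensin and mineralocorticoid genes, 1 of 13 rose and 0 fell (0 and 0 with D_C 1), and the median log2 fold change was 0.16 (0.12 with D_C 1). Agt, angiotensinogen, was at 2955, 3008, 2948 and 3194 in ND_C and 2668, 8524, 5673 and 4543 in D_C. D_C 1 was below ND_C and D_C 2 to 4 above it, for 1.03 ± 0.24 (adjusted p = 0.0272), or 0.82 ± 0.28 (0.133) with D_C 1. Of amino acid transporters, 3 of 29 rose and 2 fell (1 and 0 with D_C 1), and the median log2 fold change was -0.071 (-0.054 with D_C 1). Slc7a1, the cationic amino acid carrier, was at 1062, 780.3, 752 and 833 in ND_C and 1138, 1436, 1226 and 1468 in D_C and rose by 0.67 ± 0.14 (adjusted p = 0.0159), or 0.62 ± 0.13 (0.0377) with D_C 1. Slc7a5, a carrier of large neutral amino acids, changed by 1.00 ± 0.23 (adjusted p = 0.0249), or 0.81 ± 0.26 (0.103) with D_C 1.

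Among endothelial and basement membrane genes some rose and none fell. Of endothelial genes, 13 of 25 rose and 0 fell (6 and 0 with D_C 1), and the median log2 fold change was 0.43 (0.39 with D_C 1), and over the alternatives the median was between 0.37 and 0.64 without D_C 1 and between 0.32 and 0.43 with it. Esam, an endothelial adhesion molecule (chr9:37439344-37449615 (+), GRCm39), was at 1491, 1275, 1341 and 1440 in ND_C and 1464, 2332, 2196 and 2475 in D_C. D_C 1 lay within ND_C and D_C 2 to 4 well above, for 0.74 ± 0.090 (adjusted p = 0.00192), or 0.61 ± 0.13 (0.0377) with D_C 1. Eng, a TGF-beta co-receptor, was at 7646, 7058, 7198 and 7764 in ND_C and 8199, 11401, 10126 and 11481 in D_C, without overlap, and rose by 0.56 ± 0.083 (adjusted p = 0.00544), or 0.47 ± 0.10 (0.0377) with D_C 1. Mmrn2, a matrix protein of endothelium, was at 1919, 1490, 1440 and 1530 in ND_C and 1985, 3047, 2528 and 2529 in D_C and rose by 0.75 ± 0.12 (adjusted p = 0.00698), or 0.66 ± 0.13 (0.0340) with D_C 1. Plvap, of the fenestral diaphragm, changed by 0.55 ± 0.094 (adjusted p = 0.00905), or 0.45 ± 0.12 (0.0565) with D_C 1. The defining markers Pecam1 and Kdr were at 4464, 3770, 3777 and 3851 in ND_C and 4437, 5869, 4775 and 5632 in D_C, and at 6105, 7561, 6047 and 7466 in ND_C and 7971, 8923, 8206 and 8379 in D_C. Pecam1 changed by 0.44 ± 0.094 (adjusted p = 0.0189), or 0.38 ± 0.098 (0.0551) with D_C 1 and Kdr had 0.31 ± 0.089 (adjusted p = 0.0522), or 0.30 ± 0.084 (0.0747) with D_C 1. The summed endothelial level was 65744, 62969, 60401 and 64434 in ND_C and 71955, 89236, 83121 and 86354 in D_C, without overlap.

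Of non-collagen basement membrane and matrix genes, 10 of 31 rose and 0 fell (5 and 0 with D_C 1), and the median log2 fold change was 0.33 (0.28 with D_C 1). Lamc1, the laminin gamma chain of most basement membranes (chr1:153094597-153208774 (-), GRCm39), was at 3888, 3519, 3490 and 3838 in ND_C and 4595, 5088, 5712 and 4947 in D_C. All D_C libraries, D_C 1 included, were above ND_C, and Lamc1 rose by 0.50 ± 0.074 (adjusted p = 0.00549), or 0.47 ± 0.076 (0.0227) with D_C 1. Hspg2, perlecan, was at 12572, 11197, 10308 and 10640 in ND_C and 13848, 16652, 21484 and 16834 in D_C, also without overlap, with 0.70 ± 0.14 (adjusted p = 0.0157), or 0.62 ± 0.15 (0.0453) with D_C 1. Lamb2, the laminin beta chain of the mature glomerular basement membrane, was at 3839, 3291, 3367 and 3652 in ND_C and 4295, 4312, 5690 and 5101 in D_C, and rose by 0.50 ± 0.10 (adjusted p = 0.0167), or 0.46 ± 0.10 (0.0414) with D_C 1. Of collagens, 3 of 40 rose and 1 fell (0 and 0 with D_C 1), and the median log2 fold change was 0.21 (0.19 with D_C 1). The basement membrane chains Col4a5 and Col4a2 changed by 0.47 ± 0.085 (adjusted p = 0.0110), or 0.38 ± 0.11 (0.0758) with D_C 1 and 0.43 ± 0.10 (adjusted p = 0.0296), or 0.31 ± 0.13 (0.216) with D_C 1, while Col19a1, a minor collagen, was at 468, 786, 426 and 300.4 in ND_C and 320.2, 71.4, 175 and 163 in D_C, with -1.87 ± 0.46 (adjusted p = 0.0319), or -1.44 ± 0.44 (0.0955) with D_C 1. Of interstitial fibrosis and myofibroblast genes, 6 of 31 rose and 1 fell (1 and 0 with D_C 1), and the median log2 fold change was 0.19 (0.20 with D_C 1). Loxl2, a collagen cross-linker, changed by 0.55 ± 0.13 (adjusted p = 0.0232), or 0.47 ± 0.13 (0.0739) with D_C 1, and Timp3, an inhibitor of matrix proteases, was at 171494, 170268, 188448 and 171636 in ND_C and 168967, 148475, 132145 and 136078 in D_C, lower in all D_C libraries, with -0.35 ± 0.067 (adjusted p = 0.0126), or -0.26 ± 0.080 (0.0949) with D_C 1.

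Podocyte genes were mixed. Of podocyte genes, 1 of 28 rose and 2 fell (1 and 0 with D_C 1), and the median log2 fold change was 0.099 (0.079 with D_C 1). Cd2ap, an adaptor of the slit diaphragm, was at 10040, 9272, 9445 and 9394 in ND_C and 10876, 11528, 11204 and 11707 in D_C and rose by 0.26 ± 0.057 (adjusted p = 0.0211), or 0.25 ± 0.056 (0.0429) with D_C 1. Wt1, a transcription factor of the podocyte, was at 704, 773, 775 and 754 in ND_C and 793, 493, 510.1 and 644 in D_C. D_C 1 was the highest of the 8 libraries and D_C 2 to 4 were below ND_C, for -0.46 ± 0.12 (adjusted p = 0.0383), or -0.30 ± 0.14 (0.249) with D_C 1. Magi2, a slit diaphragm scaffold, changed by -0.42 ± 0.11 (adjusted p = 0.0360), or -0.28 ± 0.12 (0.223) with D_C 1. Nphs1, nephrin, was at 1812, 1695, 1537 and 1708 in ND_C and 1724, 1865, 1820 and 1745 in D_C. The groups overlapped, and its 0.090 ± 0.090 (adjusted p = 0.598), or 0.083 ± 0.083 (0.652) with D_C 1 did not pass.

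Of tubular injury and repair markers, 6 of 30 rose and 2 fell (1 and 0 with D_C 1), and the median log2 fold change was 0.29 (0.18 with D_C 1). Krt8, a simple epithelial keratin, changed by 0.38 ± 0.077 (adjusted p = 0.0156), or 0.31 ± 0.089 (0.0795) with D_C 1. Il34, a ligand of the macrophage receptor Csf1r, was at 1319, 1877, 1870 and 1213 in ND_C and 1302, 565, 593 and 569.6 in D_C, with D_C 1 at the ND_C level, D_C 2 to 4 far below and -1.46 ± 0.36 (adjusted p = 0.0314), or -1.05 ± 0.36 (0.132) with D_C 1. The classic injury markers Havcr1 (Kim-1) and Lcn2 (Ngal) were at 225, 157, 417 and 217 in ND_C and 44.0, 241, 98.6 and 67.0 in D_C, and at 197, 110.3, 117 and 182 in ND_C and 166, 579, 307 and 343 in D_C. They overlapped with all libraries and did not pass in either fit, with -0.92 ± 0.44 (adjusted p = 0.224), or -1.17 ± 0.45 (0.172) with D_C 1 and 1.42 ± 0.43 (adjusted p = 0.0630), or 1.198 ± 0.44 (0.154) with D_C 1.

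Of hypoxia factors and targets, 4 of 21 rose and 0 fell (3 and 0 with D_C 1), and the median log2 fold change was 0.21 (0.18 with D_C 1). Hif1a and Epas1, the oxygen-regulated transcription factors HIF-1α and HIF-2α, were at 5860, 6038, 5985 and 6791 in ND_C and 7593, 9850, 7597 and 8235 in D_C, and at 16763, 18090, 19418 and 18077 in ND_C and 20380, 21460, 22487 and 22407 in D_C. Both were higher in all D_C libraries, with 0.46 ± 0.10 (adjusted p = 0.0199), or 0.43 ± 0.098 (0.0429) with D_C 1 for Hif1a and 0.28 ± 0.056 (adjusted p = 0.0149), or 0.26 ± 0.059 (0.0427) with D_C 1 for Epas1. Pdk1, the kinase that closes pyruvate dehydrogenase, was at 2807, 2499, 2786 and 3409 in ND_C and 3224, 5126, 4818 and 4786 in D_C, with 0.76 ± 0.13 (adjusted p = 0.0100), or 0.64 ± 0.15 (0.0468) with D_C 1. Vegfa, the endothelial growth factor of podocytes and tubules, was at 13394, 13814, 12996 and 14122 in ND_C and 13488, 12649, 10759 and 10434 in D_C, and its -0.28 ± 0.085 (adjusted p = 0.0640), or -0.20 ± 0.086 (0.226) with D_C 1 did not pass.

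Most immune genes that were called fell. Of MHC class II genes, which present antigen to helper T cells, 0 of 14 rose and 10 fell (0 and 0 with D_C 1), and the median log2 fold change was -0.75 (-0.53 with D_C 1). Cd74, the invariant chain, was at 16822, 14877, 14026 and 14236 in ND_C and 13301, 6804, 9549 and 9439 in D_C. D_C 1 was just below ND_C and D_C 2 to 4 well below, for -0.81 ± 0.14 (adjusted p = 0.0108), or -0.62 ± 0.16 (0.0615) with D_C 1. The class II chains H2-Ab1, H2-Aa and H2-Eb1 were at 7247, 7062, 6282 and 5963 in ND_C and 6482, 3785, 4102 and 4021 in D_C, at 6886, 5765, 5515 and 6175 in ND_C and 5394, 3056, 3813 and 4046 in D_C, and at 5455, 4464, 3973 and 5086 in ND_C and 4359, 2441, 3117 and 3088 in D_C. D_C 1 stayed near ND_C for all of them, and the log2 fold changes were -0.75 ± 0.13 (adjusted p = 0.0110), or -0.53 ± 0.16 (0.0974) with D_C 1 for H2-Ab1, -0.75 ± 0.14 (adjusted p = 0.0110), or -0.58 ± 0.15 (0.0600) with D_C 1 for H2-Aa and -0.73 ± 0.14 (adjusted p = 0.0122), or -0.55 ± 0.15 (0.0772) with D_C 1 for H2-Eb1. Of MHC class I genes, 0 of 20 rose and 7 fell (0 and 0 with D_C 1), and the median log2 fold change was -0.26 (-0.14 with D_C 1). Nlrc5, the class I transactivator, was at 862, 709.7, 504 and 595 in ND_C and 616, 324, 374 and 321 in D_C and changed by -0.99 ± 0.20 (adjusted p = 0.0149), or -0.71 ± 0.22 (0.102) with D_C 1, and B2m, the class I light chain, by -0.47 ± 0.12 (adjusted p = 0.0334), or -0.38 ± 0.12 (0.102) with D_C 1. H2 genes are a multigene family whose shared reads make single members uncertain.

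Of interferon-stimulated genes, 0 of 52 rose and 7 fell (0 and 1 with D_C 1), and the median log2 fold change was -0.16 (-0.067 with D_C 1). Igtp, an interferon-gamma-induced GTPase, was at 1289, 1245, 1197 and 1174 in ND_C and 1158, 584, 651 and 799.8 in D_C, with -0.86 ± 0.13 (adjusted p = 0.00570), or -0.62 ± 0.17 (0.0682) with D_C 1. Gbp3, a guanylate-binding protein, was at 565, 535, 505 and 584 in ND_C and 418, 347, 319.9 and 434 in D_C and fell, with -0.59 ± 0.14 (adjusted p = 0.0246), or -0.53 ± 0.12 (0.0464) with D_C 1. Of complement components and regulators, 1 of 28 rose and 3 fell (1 and 0 with D_C 1), and the median log2 fold change was -0.23 (-0.14 with D_C 1). Masp1, a protease of the lectin pathway, was at 123, 89.5, 112 and 155 in ND_C and 148, 344, 239 and 235 in D_C and rose by 1.17 ± 0.20 (adjusted p = 0.0100), or 1.01 ± 0.23 (0.0429) with D_C 1. Cfb, factor B of the alternative pathway, was at 27065, 26131, 25519 and 24130 in ND_C and 27916, 12830, 19206 and 19405 in D_C, with -0.59 ± 0.13 (adjusted p = 0.0204), or -0.37 ± 0.16 (0.221) with D_C 1, and C4b, whose copy C4a shares its reads, changed by -0.79 ± 0.17 (adjusted p = 0.0211), or -0.59 ± 0.18 (0.102) with D_C 1.

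Immunoglobulin transcripts, which B lineage cells make, gave 128 genes that could be tested, of which 11 fell with all libraries and 27 without D_C 1, and none rose. There were 394 such genes in all, and most of their counts came from non-diabetic libraries. The filter on counts thus favoured genes that are high there, so these numbers are no separate result. Igkc, the kappa constant region, was at 11164, 3852, 3526 and 2561 in ND_C and 2048, 522, 685 and 1095 in D_C. ND_C 1 was the highest and no D_C library reached ND_C, for -2.79 ± 0.56 (adjusted p = 0.0147), or -2.27 ± 0.52 (0.0443) with D_C 1. Ighm, the mu heavy chain, was at 6025, 384, 464 and 2240 in ND_C and 462, 226, 289 and 290.4 in D_C, with -3.09 ± 0.83 (adjusted p = 0.0415), or -2.84 ± 0.72 (0.0539) with D_C 1, and Iglc1, a lambda constant region, at 423, 60.6, 146 and 133 in ND_C and 49.98, 44.2, 36.4 and 45.5 in D_C, with -2.19 ± 0.56 (adjusted p = 0.0350), or -2.11 ± 0.48 (0.0436) with D_C 1. Jchain, which joins IgA and IgM, was at 3138, 1532, 1356 and 805 in ND_C and 708, 198, 341 and 509 in D_C and fell, with -2.30 ± 0.51 (adjusted p = 0.0213), or -1.96 ± 0.46 (0.0468) with D_C 1. Pou2af1, a B cell coactivator, was at 175, 55.7, 60.0 and 42.2 in ND_C and 31.3, 0, 11.6 and 22.3 in D_C, with -2.86 ± 0.80 (adjusted p = 0.0472), or -2.33 ± 0.70 (0.0926) with D_C 1. Of B cell and plasma cell genes, 0 of 19 rose and 2 fell (0 and 1 with D_C 1), and the median log2 fold change was -1.12 (-0.67 with D_C 1), and Ms4a1 was low in all 8 libraries, at 6.58 to 74.7. Immunoglobulin segments share sequence, so their single counts are uncertain.

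Of T cell genes, 0 of 26 rose and 3 fell (0 and 1 with D_C 1), and the median log2 fold change was -0.91 (-0.64 with D_C 1). Lat, the adaptor of the T cell receptor, was at 73.6, 75.5, 65.7 and 55.7 in ND_C and 34.7, 19.7, 26.7 and 26.6 in D_C, without overlap, and fell, with -1.48 ± 0.25 (adjusted p = 0.0100), or -1.32 ± 0.24 (0.0284) with D_C 1. Cd28, the costimulatory receptor, changed by -1.44 ± 0.33 (adjusted p = 0.0246), or -1.13 ± 0.32 (0.0780) with D_C 1, and Cd3e, a defining chain of the receptor, had -1.05 ± 0.35 (adjusted p = 0.0848), or -0.82 ± 0.32 (0.185) with D_C 1 and did not pass. T cell genes summed to 2672, 2346, 1832 and 1981 in ND_C and 2059, 1520, 1631 and 1581 in D_C. Of macrophage genes, 0 of 25 rose and 3 fell (0 and 0 with D_C 1), and the median log2 fold change was -0.32 (-0.26 with D_C 1), with sums of 19173, 17571, 16262 and 19705 in ND_C and 17455, 16567, 15285 and 15165 in D_C. Laptm5, a lysosomal protein of leukocytes, was at 1410, 1139, 1129 and 1256 in ND_C and 1163, 728, 729.6 and 774 in D_C, with -0.74 ± 0.12 (adjusted p = 0.00878), or -0.54 ± 0.15 (0.0733) with D_C 1. Ptprc, the leukocyte antigen CD45, changed by -0.72 ± 0.16 (adjusted p = 0.0215), or -0.56 ± 0.16 (0.0846) with D_C 1, and Tyrobp, a signaling adaptor of myeloid cells, by -0.62 ± 0.15 (adjusted p = 0.0323), or -0.54 ± 0.14 (0.0648) with D_C 1.

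Genes of vitamin B12, folate and NAD metabolism were called in both directions, to be read against 3.18% of all genes higher and 2.93% lower without D_C 1. Of genes for vitamin B12 uptake and processing, 2 of 18 rose and 1 fell (1 and 1 with D_C 1), and the median log2 fold change was 0.0063 (-0.033 with D_C 1). Tcn2, transcobalamin, which carries the vitamin into cells (chr11:3866490-3882378 (-), GRCm39), was at 95300, 101082, 106029 and 100829 in ND_C and 86788, 81188, 80640 and 79515 in D_C. It was lower in all D_C libraries and fell, with -0.34 ± 0.054 (adjusted p = 0.00698), or -0.30 ± 0.056 (0.0300) with D_C 1. Of one-carbon and homocysteine genes, 2 of 29 rose and 2 fell (0 and 1 with D_C 1), and the median log2 fold change was 0.066 (0.021 with D_C 1), a sign that turned with D_C 1 under upper-quartile scaling. Aldh1l1, a folate enzyme, changed by 0.32 ± 0.067 (adjusted p = 0.0171), or 0.23 ± 0.092 (0.188) with D_C 1. Of NAD genes, 1 of 28 rose and 2 fell (1 and 1 with D_C 1), and the median log2 fold change was -0.0051 (0.0072 with D_C 1), and that sign turned as well. Bst1, an NAD-consuming ectoenzyme, was at 556, 415, 293 and 477 in ND_C and 751, 985, 742 and 1180 in D_C and rose by 1.14 ± 0.28 (adjusted p = 0.0292), or 1.07 ± 0.26 (0.0492) with D_C 1, and Aspdh, an aspartate dehydrogenase homolog, was at 3698, 4385, 4058 and 4096 in ND_C and 3211, 2904, 3099 and 2507 in D_C and fell, with -0.53 ± 0.097 (adjusted p = 0.0110), or -0.47 ± 0.090 (0.0300) with D_C 1.

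Of core clock genes and their PAR bZIP outputs, 2 of 26 rose and 1 fell (1 and 0 with D_C 1), and the median log2 fold change was 0.19 (0.20 with D_C 1). Cry2, a clock repressor, was at 1074, 1417, 1221 and 1755 in ND_C and 2565, 2761, 2385 and 2421 in D_C, higher in all D_C libraries, with 0.87 ± 0.24 (adjusted p = 0.0438), or 0.89 ± 0.22 (0.04996) with D_C 1. Bhlhe41, a further repressor, changed by 1.28 ± 0.36 (adjusted p = 0.0474), or 1.14 ± 0.34 (0.0922) with D_C 1. Bmal1, the clock activator, was at 1115, 513, 727 and 324 in ND_C and 269, 241, 230.2 and 324 in D_C, where ND_C ranged widely. Bmal1 at -1.35 ± 0.52 (adjusted p = 0.133), or -1.33 ± 0.46 (0.129) with D_C 1 and the repressor Per1 at 0.52 ± 0.26 (adjusted p = 0.257), or 0.57 ± 0.24 (0.218) with D_C 1 did not pass.

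Of unfolded protein and integrated stress response genes, 1 of 35 rose and 3 fell (0 and 1 with D_C 1), and the median log2 fold change was -0.020 (-0.038 with D_C 1). Calr, the calcium-binding chaperone calreticulin, was at 56998, 59369, 59393 and 57161 in ND_C and 51976, 46220, 43510 and 44693 in D_C, lower in all D_C libraries, and fell, with -0.39 ± 0.073 (adjusted p = 0.0118), or -0.32 ± 0.076 (0.0469) with D_C 1. Sdf2l1, an endoplasmic reticulum chaperone partner, changed by -0.80 ± 0.20 (adjusted p = 0.0335), or -0.72 ± 0.18 (0.0562) with D_C 1. Of heat shock and cold-inducible genes, 1 of 23 rose and 2 fell (0 and 1 with D_C 1), and the median log2 fold change was -0.28 (-0.27 with D_C 1). Hspe1, the mitochondrial co-chaperonin, was at 9009, 9583, 9946 and 10051 in ND_C and 8451, 8447, 6837 and 7780 in D_C and fell, with -0.34 ± 0.074 (adjusted p = 0.0204), or -0.29 ± 0.071 (0.0492) with D_C 1. Of glucocorticoid-responsive genes, 2 of 18 rose and 1 fell (0 and 0 with D_C 1), and the median log2 fold change was 0.40 (0.33 with D_C 1), and of immediate early genes, 3 of 25 rose and 0 fell (1 and 0 with D_C 1), and the median log2 fold change was 0.20 (0.27 with D_C 1).

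Of androgen-dependent genes of the mouse proximal tubule, 1 of 14 rose and 4 fell (0 and 3 with D_C 1), and the median log2 fold change was -0.60 (-0.53 with D_C 1). Timd2, a receptor for ferritin (chr11:46559787-46597939 (-), GRCm39), was at 4510, 4741, 5048 and 4650 in ND_C and 3360, 3075, 2797 and 3244 in D_C. Every D_C library, D_C 1 included, was below every ND_C library, and Timd2 fell, with -0.65 ± 0.098 (adjusted p = 0.00570), or -0.60 ± 0.088 (0.0227) with D_C 1. Odc1, ornithine decarboxylase, the first step of polyamine synthesis (chr12:17594383-17601507 (+), GRCm39), was at 58103, 86667, 78466 and 76174 in ND_C and 39880, 32753, 29485 and 43820 in D_C, without overlap, and fell, with -1.09 ± 0.25 (adjusted p = 0.0244), or -1.04 ± 0.22 (0.0375) with D_C 1. Kap, the kidney androgen-regulated protein and 1 of the most abundant transcripts, was at 1230460, 1428470, 1446050 and 1367840 in ND_C and 1065080, 625013, 888171 and 967139 in D_C, with -0.74 ± 0.19 (adjusted p = 0.0354), or -0.63 ± 0.18 (0.0782) with D_C 1. Of 45 cell cycle and mitosis genes and 28 Wnt, Ret and collecting duct growth genes, none was called in either fit, with medians of 0.16 and 0.12 without D_C 1. Of linker and core histone genes, 2 of 72 rose and 2 fell (0 and 2 with D_C 1), and the median log2 fold change was -0.011 (-0.022 with D_C 1), and of motile cilia axoneme genes, 2 of 38 rose and 1 fell (1 and 0 with D_C 1), and the median log2 fold change was 0.14 (0.067 with D_C 1).

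Calls among markers of the nephron segments can be read against 3.18% of all genes higher and 2.93% lower without D_C 1. The most were in the thin limb, where 4 of 8 markers rose without D_C 1 and 2 with all libraries. No marker of the proximal tubule S3 segment was called in either fit, and of the 10 S1 and S2 markers 1 fell without D_C 1 and none with it. Of 8 thick ascending limb markers 2 rose, of 8 distal convoluted tubule markers 1 fell, without D_C 1 alone. Of 8 principal cell markers 2, Aqp2 and Aqp3, rose in both fits. Of 14 adipocyte markers and 4 adrenal markers none was called in either fit. Of 8 red blood cell markers 1 rose without D_C 1, namely Slc4a1, which is also counted among the intercalated cell genes. Of the same 8 markers, 7 had a log2 fold change below 0 without D_C 1, and the median was -0.26.

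**Figure D4:**
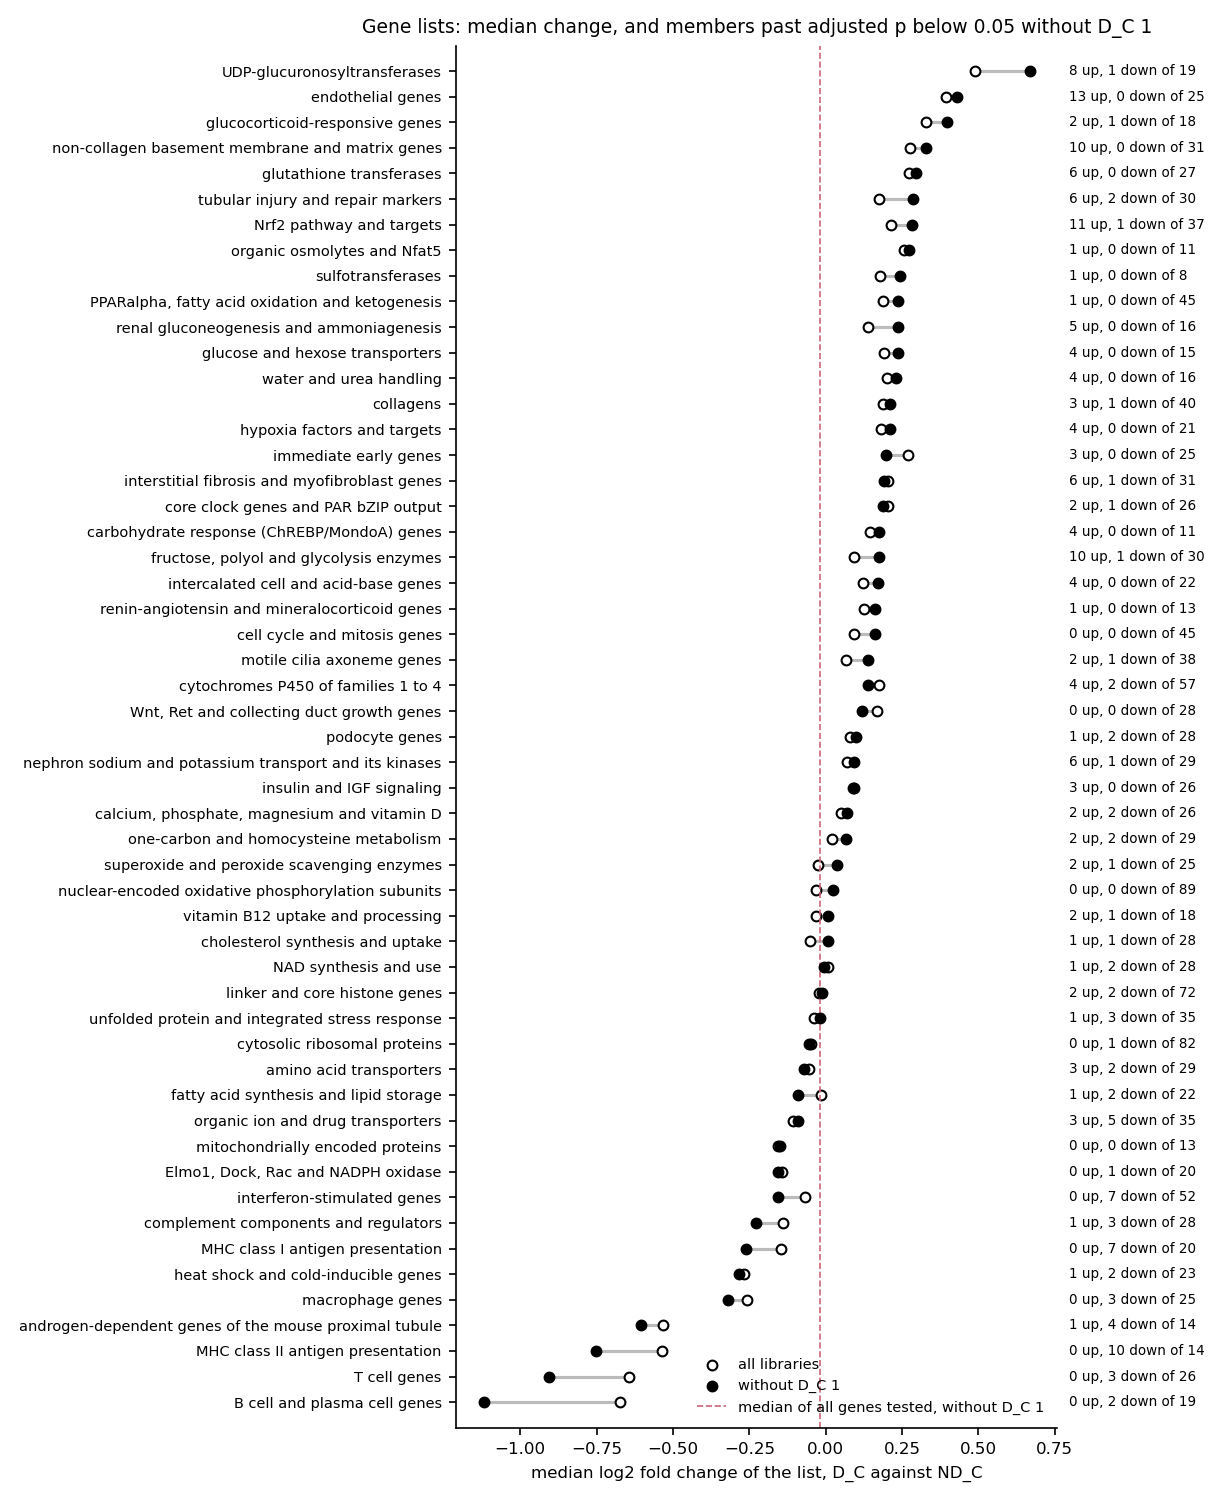
Median log2 fold change of D_C against ND_C (x axis) of 53 gene lists (nephron segment, immunoglobulin, muscle, adrenal, red blood cell and adipocyte lists are not drawn), with all libraries (open) and without D_C 1 (filled), with the number of members called without D_C 1 at the right; the dashed line is the median of all genes tested. UDP-glucuronosyltransferases (0.67) and endothelial genes (0.43) lie at the top of the lists drawn and B cell and plasma cell genes (-1.12) at the bottom. Most UDP-glucuronosyltransferases that rose share exons in the Ugt1a cluster.

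The diabetic and non-diabetic kidneys labelled B12-treated (D_B12 and ND_B12) gave a second comparison of the genotypes that shared no library with the first. All ND_B12 libraries bear dates in August and all D_B12 libraries dates in October or November. Genotype and date thus cannot be told apart here either, and run in the same order as in untreated kidneys. No fit with the date was made for this pair, and signs or calls shared by both pairs carry this limit. There 209 genes were called with all libraries (0.823% of those tested), 66 higher (0.26%) and 143 lower (0.563%). Without D_C 1, which enters this comparison through the shared spread alone, 408 were called (1.61%), 180 higher (0.708%) and 228 lower (0.897%). Upper-quartile scaling called 18 with all libraries, 8 higher and 10 lower, and 373 without D_C 1, 199 higher and 174 lower. With all other libraries kept, leaving out any of D_B12 1, 2 or 3 or ND_B12 2 left 0 by edgeR (3331 to 3927 at an unadjusted p below 0.05, and 1, 15, 89 or 265 called without ND_B12 3, D_B12 4, ND_B12 1 or ND_B12 4). DESeq2 called 1189 with all libraries. With both fits without D_C 1, 91 genes were called in the same direction in untreated and treated kidneys, which is 5.87% of the 1551 and 22.3% of the 408, and 10 in opposite directions. With all libraries 13 were, or 3.07% of the 423 and 6.22% of the 209, and 0 in opposite directions. The sign was the same at 68.0% of the 1551 genes, against 52.1% of all genes tested in these fits. With all libraries in both fits it was the same at 66.4% of the 423. The share over all genes was not taken for that pair of fits. It was 51.8% between the untreated fit without D_C 1 and the treated fit of all libraries. Treated values for single genes and lists below are from the fit of all libraries. Genes called higher without D_C 1 had a median log2 fold change of 0.50 in untreated and 0.058 in treated kidneys, and genes called lower had -0.69 and -0.15. These genes were chosen by their test in untreated kidneys, which by itself makes the untreated folds larger. The medians therefore do not measure a difference between the pairs.

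The difference between the effects in the untreated and treated pairs was tested gene by gene. With all libraries 0 genes passed edgeR's test of the difference (4093 had an unadjusted p below 0.05, and DESeq2 called 943), and without D_C 1 it passed at 265 genes (1.04%), of which 159 were among the 1551. Without ND_B12 4 as well, 83 genes passed, of which 76 were among the 265. By the other sets of libraries described above, D_C 2 to 4 would be treated and D_B12 untreated, ND_B12 4 would be diabetic, and ND_B12 1, ND_C 3 and D_C 1 would change the non-diabetic groups too. The sign of these differences therefore holds for the labels alone. Of the 15 genes with a difference named here, Hk1, Txnip, Aqp6, Aqp3, Aldh1l1 and Lamc1 also passed without ND_B12 4, with adjusted p from 0.0435 to 0.0466, and the others had 0.0581 to 0.0715. Endothelial genes held 7 of the differences among 25 members, with a median of 0.43 in untreated kidneys and -0.025 in treated. Esam was at 1536, 1305, 1261 and 1507 in ND_B12 and 1782, 1489, 1491 and 1427 in D_B12, with a log2 fold change of 0.14 ± 0.13 there against 0.74 ± 0.090 in untreated kidneys (adjusted p of the difference = 0.0407). For Mmrn2 and Plvap the treated values were -0.052 ± 0.13 and -0.080 ± 0.12 (adjusted p of the difference = 0.0414 and 0.0400), and for Lamc1 -0.042 ± 0.076 (0.0345).

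Without D_C 1, the difference passed for 1 of 15 glucose and hexose transporters, 3 of 30 fructose, polyol and glycolysis enzymes and 1 of 11 carbohydrate response genes. Hk1 had -0.19 ± 0.086 in treated kidneys against 0.57 ± 0.075 in untreated (adjusted p of the difference = 0.0252). Pkm had 0.13 ± 0.13 and Pfkl 0.053 ± 0.11 in treated kidneys (adjusted p of the difference = 0.0359 and 0.0442), and Slc2a1 -0.18 ± 0.10 (0.0474). Txnip was at 34069, 34272, 30828 and 60751 in ND_B12 and 22655, 25545, 30742 and 32544 in D_B12. ND_B12 4 was far above the other ND_B12 libraries. The treated effect was -0.53 ± 0.20 with it and -0.25 ± 0.13 without it and D_C 1, against 0.73 ± 0.20 in untreated kidneys (adjusted p of the difference = 0.0466, or 0.0435 without ND_B12 4).

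The water channels Aqp6 and Aqp3 were among the differences too. Aqp6 had -0.037 ± 0.19 and Aqp3 -0.028 ± 0.13 in treated kidneys (adjusted p of the difference = 0.0280 and 0.0401). For Aqp2, 0.59 ± 0.38 in treated and 1.91 ± 0.37 in untreated kidneys were not shown to differ (adjusted p of the difference = 0.175). The folate gene Aldh1l1, with -0.22 ± 0.092 in treated and 0.32 ± 0.067 in untreated kidneys, differed as well (adjusted p of the difference = 0.0280). So did Gstt3 at -0.089 ± 0.089 in treated kidneys (0.0348), Epas1 at -0.13 ± 0.059 (0.0355) and Lat at 0.10 ± 0.24 (0.0426).

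Genes called in both pairs in the same direction included Igkc, Jchain, Tcn2, Timd2 and Grem1. Igkc had -2.51 ± 0.53 (adjusted p = 0.0427) and Jchain -2.23 ± 0.47 (0.0423) in treated kidneys. Tcn2 changed by -0.32 ± 0.056 (0.0290) and Timd2 by -0.46 ± 0.088 (0.0370). Grem1 was at 5.46, 27.8, 12.4 and 61.9 in ND_B12 and 477, 673, 236 and 65.6 in D_B12, for 3.72 ± 0.81 (0.0458). MHC class II genes had medians of -0.75 in untreated and -0.62 in treated kidneys, with 0 of 14 called in the treated pair, and Cd74 there had -0.62 ± 0.16 (0.0760).

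**Figure D5:**
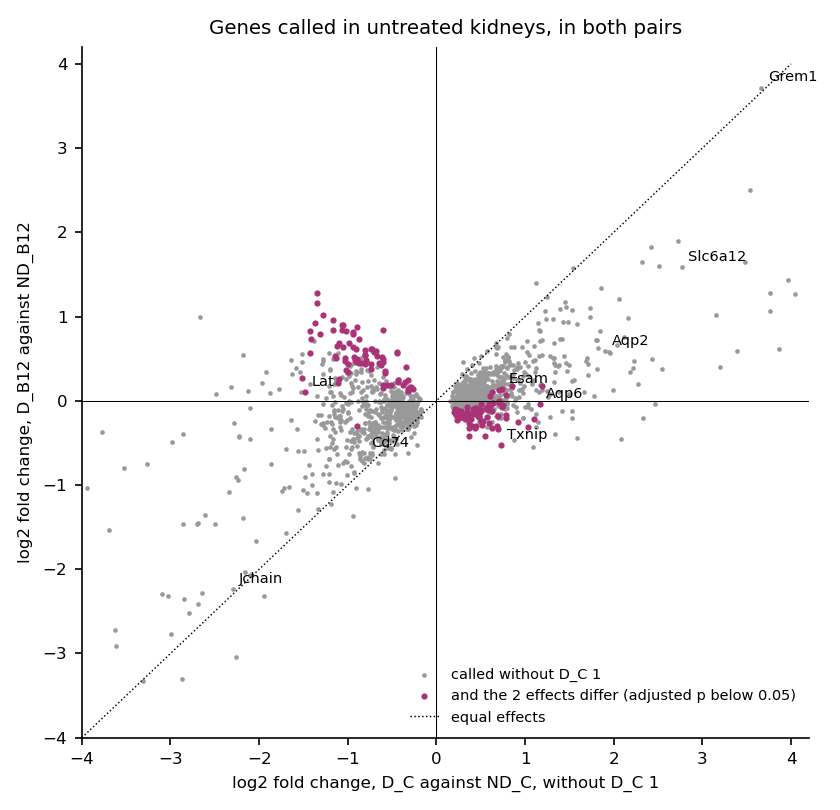
Log2 fold change of D_C against ND_C without D_C 1 (x axis) and of D_B12 against ND_B12 (y axis) for 1520 of the 1551 genes called in untreated kidneys; 31 lie outside the axes, purple points are genes at which both effects differed by edgeR, and the dotted line marks equal effects. Esam and Aqp6 lie near 0 on the y axis, whereas Grem1 and Jchain lie near the line.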

How the data were processed

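Kidney RNA of 16 mice was measured, 4 per labelled group, and each library's group was taken from its title. The authors aligned paired reads to GRCm39 (GENCODE vM35) with STAR and deposited estimated counts per gene made with StringTie and its count script. These counts were whole numbers, 0 columns lacked a library, and the table per transcript was not used. Whether libraries or counting kept strand is not given in the sources used here, and 107 of the 146 genes named overlap another annotated gene (GENCODE vM39). Totals ran from 65271308 to 91771136 counts per library. At this depth the spread between mice limits the precision, with a biological coefficient of variation of 0.2008 (0.1907 without D_C 1). The labels name replicates as biological, which p-values take as separate mice.

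Genes with at least 100 counts in all were tested in R 4.3.3 with edgeR 4.0.16 (glmQLFit, glmQLFTest, TMM), 1 coefficient per labelled group and a spread shared by the 16 libraries (15 without D_C 1), two-sided, with Benjamini-Hochberg adjustment over all genes. Normalized counts are counts over median-of-ratios size factors, and principal components used log2 CPM with a prior count of 2. The comparisons were D_C against ND_C, D_B12 against ND_B12, and the difference of both. Genes named were the 12 leading increases and decreases by log2 fold change in each fit (adjusted p below 0.05 and a mean normalized count of at least 50, without predicted loci and immunoglobulin segments), up to 4 members of each of 65 lists by the smallest p without D_C 1, and 2 anchor genes of each list. Some genes that this rule names are not reported here. The comparison, lists and rule were chosen with earlier results of these data known, and the placental and hepatocyte lists after values were seen. A symbol listed more than once was read from its most abundant entry. Promoters were taken from RefSeq for 2 genes, both found by symbol, and motifs were searched on both strands of all windows.

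The alternatives were DESeq2 1.42.0, upper-quartile scaling, no filter beyond 1 count, filterByExpr, the compared groups alone, the replicate number as a block, the date of the library name as a factor or linear term, and each library left out. For the difference of both effects, DESeq2 and upper-quartile scaling were added after the data were seen, as were the treated pair without D_C 1 and both without ND_B12 4. The test was tried on simulated counts with 200 genes changed. Python 3.11.15 was used with numpy 2.4.6, pandas 2.3.3 and scipy 1.17.1, and matplotlib 3.10.9 drew the plots.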

Additional observations from a re-analysis of the deposited data

Results flagged for a closer look

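In 23 of 292 sets of 4 libraries examined, 1 library lay far from the other 3, by the ratio of its gap to the range of the group. Chance flags about 1 in 20 such groups drawn without regard to their values, a rate that does not hold here, since most of these genes were named for a small p without D_C 1. That choice favours genes at which D_C 1 is apart, and 16 of the 23 concerned D_C 1. D_C 1 was high for the placental genes Psg23 (ratio 0.948), Ctsj (1.0), Tpbpa (0.917), Psg21 (0.855) and Pappa2 (0.844), for Cyp2d12 (0.914) and Il34 (0.962), and for the immune genes H2-Ab1 (0.882), Laptm5 (0.895) and Ptprc (0.905). It was low for Khk (0.892), Gpam (0.846), Nqo1 (0.854), Gstm1 (0.864), Car15 (0.884) and Aqp3 (0.880). Aqp3 was still higher in D_C 1 than in every ND_C library. D_C 2 was high for Pck1 (0.833) and D_C 3 for Pck2 (0.892). ND_C 1 was high for Igkc (0.850), Pou2af1 (0.866) and Pecam1 (0.883), ND_C 4 for Slc5a1 (0.861) and ND_C 3 for Timp3 (0.925).

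For 15 named genes the effect of diabetes differed between untreated and treated kidneys by edgeR's test of the difference without D_C 1, and none did with it. Without ND_B12 4 as well, 6 of the 15 passed. The adjusted p of the difference was 0.0474 for Slc2a1, 0.0359 for Pkm, 0.0252 for Hk1, 0.0442 for Pfkl and 0.0466 for Txnip. It was 0.0348 for Gstt3, 0.0280 for Aqp6 and 0.0401 for Aqp3. For Aldh1l1 it was 0.0280 and for Epas1 0.0355. It was 0.0407 for Esam, 0.0414 for Mmrn2, 0.0400 for Plvap, 0.0345 for Lamc1 and 0.0426 for Lat. Lat was lower and the others higher in untreated D_C than in ND_C.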

How the results depend on the processing

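Counts of called genes moved with most choices. For D_C against ND_C with all libraries, the 423 became 1637 with DESeq2, 182 with the compared groups alone, 63 with no filter, 0 with the date as a factor (4 residual degrees of freedom, with D_C 1 as the D_C library that enters), 2 with the date as a linear term, and 0 (without ND_C 2) to 1551 (without D_C 1) when libraries were left out. By p and fold, 1941 became 1191 with the date as a factor. Without D_C 1, the 1551 became 2867 with DESeq2, 811 with no filter, 281 with the date as a linear term and 449 (without ND_C 2) to 1495 (without ND_C 4) when a further library was left out, and upper-quartile scaling gave 639 higher and 878 lower. The date as a factor could not be fitted without D_C 1. The 209 of the treated pair became 1189 with DESeq2, 18 with upper-quartile scaling (8 higher and 10 lower, against 66 and 143) and 0 (without D_B12 1, 2 or 3 or ND_B12 2) to 408 (without D_C 1) when libraries were left out. Those 408 became 1532 with DESeq2, 191 with the compared groups alone and 684 without ND_B12 4. For the difference of both effects, DESeq2 called 943 in place of 0 and, without D_C 1, 1609 in place of 265, which became 83 without ND_B12 4. The cause was not tested.

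Same-numbered D_C and ND_C libraries had deviations correlated at 0.15, 0.042, 0.069 and -0.010, so the numbers were not taken as pairs, although 3 of 4 libraries of each group correlated best with their own number. With the number as a replicate block, calls were 269 with all libraries, 851 without D_C 1 and, in the treated pair, 25 with all libraries and 132 without D_C 1.

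Of the 146 named genes, the sign with all libraries turned for Cps1 (-0.44), Khk (-0.034) and Elmo1 (0.15) with the date as a linear term, and Elmo1 lay between -0.21 and 0.019 when libraries were left out. With that date term 59 named genes were no longer called, and the median of 16 lists, UDP-glucuronosyltransferases among them, turned sign.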
